A study of Mus musculus with 9 samples.

Results

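The genes described here are 9 genes of B cell identity and of the B cell receptor, Cd79a, Cd79b, Ms4a1, Cr2, Cd22, Pax5, Fcer2a, Blk and Fcrla, out of 52157 gene symbols in RNA sequencing tables of 9 mouse liver tumors. A gene was found in each tumor's table by its symbol, and all 9 were found in all 9 tumors. The genes were picked with earlier results of the same tumors in view, so their own values are a description and carry no test.

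The tumors grew from Hepa1-6 cells, a mouse hepatoma line, in the livers of C57BL/6 mice, and each tumor came from a different mouse. Mice received PBS (3 tumors) or an anti-PD-1 antibody, which blocks an inhibitory receptor of T cells, every 4 days for 5 injections. Of the antibody-treated tumors, the authors called the 3 largest nonresponsive and the 3 smallest responsive and excluded those between, so that response stands for tumor size at collection. All mice carried the same implanted line, the labels give no age, and the surrounding liver was removed before RNA was extracted from the whole tumor.

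B cells recognize antigen through a membrane immunoglobulin that is held in a complex with the signaling chains Cd79a and Cd79b. Src-family kinases such as Blk phosphorylate these chains after binding, Cr2 lowers the threshold for a signal, and Cd22 raises it. Pax5 is the transcription factor that commits precursors to the B lineage and keeps mature B cells in it, and most of the other genes lose expression when a B cell becomes a plasma cell. In bulk tumors, fewer B cells and less RNA per B cell cannot be told apart.

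Values are FPKM, fragments counted on a gene and divided by its transcript length and by the tumor's mapped fragments, so levels of different genes can be set side by side. The fragment totals are not in the tables, and the depth behind a value is therefore unknown, but each FPKM comes with the authors' confidence bounds within that tumor. An FPKM of 1 or more was reached by 12533 to 13328 named entries in each tumor. Entries that name no gene took 70.4% to 73.2% of the summed FPKM in the nonresponsive tumors, 21.0% to 55.1% in the responsive and 19.2% to 81.5% in the PBS tumors. The FPKM summed over named entries differed less. It was 650546 to 716227 in nonresponsive, 763180 to 814187 in responsive and 683753 to 743126 in PBS tumors. The part of this scaling in the results was not tested, and values on other scalings are given below. Genes of pancreatic acinar cells were abundant only in nonresponsive tumor 2, where Ctrb1 was at 415 and Amy2b, in a locus with other amylase genes, at 510, against 0 for Ctrb1 and at most 49.1 for the Amy2b locus in the other tumors. Without that tumor the median difference of the 9 genes between responsive and nonresponsive tumors was 1.24, in place of 1.23.

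As background, the sequence before the start sites of 2 of the 9 genes is shown, that of Cd79a for the receptor chain and that of Cd22 for the inhibitory receptor. No link between these sequences and the levels in the tumors was tested. RefSeq promoter windows on GRCm38.p6, from 250 bases before to 50 bases after a start site, were at hand for 6 of the 9 genes, namely Cd79a, Cd22, Cr2, Pax5, Fcrla and Fcer2a, and not for Cd79b, Ms4a1 and Blk. They make 8 windows, 3 of them of Fcer2a. The 250 bases before each start site are printed 5′ to 3′ on the strand of the gene, with the letters of matches in capitals. Cd79a lies on the forward strand at chr7:24897247-24897496 and Cd22 on the reverse strand at chr7:30879029-30879278.
Cd79a: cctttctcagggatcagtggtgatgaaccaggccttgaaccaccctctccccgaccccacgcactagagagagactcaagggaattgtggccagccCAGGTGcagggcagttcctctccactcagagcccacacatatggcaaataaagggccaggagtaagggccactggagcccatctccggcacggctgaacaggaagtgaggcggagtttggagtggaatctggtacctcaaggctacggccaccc
Cd22: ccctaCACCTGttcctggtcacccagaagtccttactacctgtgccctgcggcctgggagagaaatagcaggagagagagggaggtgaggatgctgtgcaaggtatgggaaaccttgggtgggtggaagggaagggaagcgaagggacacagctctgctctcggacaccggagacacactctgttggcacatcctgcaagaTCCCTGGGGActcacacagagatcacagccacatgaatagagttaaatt
The capitals mark CAGGTG, an E-box that E proteins such as Tcf3 can bind, on either strand, and TCCC and GGGA with any 2 bases between, the palindromic core bound by Ebf1. The first stood 154 bases before the start in Cd79a and, on the opposite strand, 245 bases before it in Cd22, and the second began 49 bases before the start in Cd22. CAGGTG was in 5 of the 8 windows and in 20.2% of all 32851 windows, and the Ebf1-type core was in 1 of 8 and in 0.904% of all. The octamer ATTTGCAT (1.74% of all windows) and the PU.1-type element GAGGAAGT (3.20%) were in 0 of the 8 windows on either strand. These are exact matches of letters, which do not overlap each other in these windows, and say nothing of occupancy. A window without a match may still hold a variant of an element.

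The antigen receptor chains were the most abundant of the 9 genes and showed the widest range between tumors. Cd79a was at an FPKM of 0.422, 23.6 and 13.1 in PBS tumors 1 to 3, at 0, 7.91 and 6.73 in the nonresponsive tumors and at 47.0, 24.4 and 67.4 in the responsive tumors. Cd79b, its partner, was at 0.869, 27.7 and 15.5 in PBS, at 21.7, 13.6 and 9.26 in nonresponsive and at 57.3, 21.2 and 85.3 in responsive tumors. Responsive tumors 1 and 3 were highest for both chains, and responsive tumor 2 was near PBS tumor 2. For Cd79a the listed values of the responsive tumors lay above all others, if only just. The confidence bounds of responsive tumor 2 (22.1 to 26.6) and PBS tumor 2 (21.3 to 25.9) overlapped. For Cd79b responsive tumor 2 was under PBS tumor 2 and nonresponsive tumor 1.

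The 0 for Cd79a in nonresponsive tumor 1 may be a missing estimate. Cd79b was at 21.7 in the same tumor, and the ratio of Cd79a to Cd79b was between 0.486 and 1.15 in the other 8 tumors. The authors' pooled FPKM of Cd79a for the nonresponsive group, 12.2, is also above each of the 3 tumors' values. Without this tumor the mean log2(FPKM + 1) of Cd79a was 2.40 ± 0.431 (SE, 3 responsive and 2 nonresponsive tumors) higher in responsive than in nonresponsive tumors, in place of 3.41 ± 1.10 with it. Nonresponsive tumor 1 was the highest nonresponsive tumor for 6 of the 9 genes. Leaving it out may thus overstate the gap for Cd79a and understate its SE.

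Blk, the Src-family kinase of the B lineage, was lower and less spread. Its FPKM was 1.03, 4.17 and 2.83 in the PBS, 4.81, 2.14 and 2.82 in the nonresponsive and 7.13, 3.33 and 8.56 in responsive tumors. Nonresponsive tumor 1 and PBS tumor 2 were above responsive tumor 2, so the responsive tumors overlapped with both other groups. The estimate of PBS tumor 3 was loose, with bounds of 0 to 6.64.

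Among the coreceptors and regulators, Cr2, the complement receptor of B cells, could not be compared in every tumor. It was at 0.324, 1.28 and 0.878 in PBS tumors, at 0.916 and 0.451 in nonresponsive tumors 1 and 2 and at 3.57, 1.02 and 3.40 in responsive tumors. In nonresponsive tumor 3 only 1 row named it, which also named Cd46 and the broadly expressed complement regulator Cr1l, and that row was at 27.2. This value is the sum of 3 genes and no measure of Cr2, and without that tumor Cr2 was 1.04 ± 0.433 (SE, 3 against 2 tumors) higher in responsive than in nonresponsive tumors on the log2 scale. The sign turns with it included (−0.32), and with the whole joined locus used in every tumor the difference was 0.27.

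Cd22, an inhibitory lectin of B cells, was at 1.77, 7.75 and 5.42 in PBS, at 7.34, 5.83 and 4.66 in nonresponsive and at 13.9, 7.62 and 18.2 in responsive tumors. The responsive tumors stood above the nonresponsive, but responsive tumor 2 and nonresponsive tumor 1 were closer than their bounds (5.11 to 10.1 and 4.80 to 9.87). Fcrla, an Fc receptor-like protein kept inside B cells, was at 0.272, 7.94 and 4.19 in PBS, at 5.10, 3.81 and 2.53 in nonresponsive and at 13.2, 3.96 and 17.8 in responsive tumors. Here responsive tumor 2 ranked 6th of the 9 tumors, its lowest place among the 9 genes.

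Apart from Cd79a with its doubtful 0, only 1 gene had each responsive tumor above each of the other 6. This was Fcer2a, the low-affinity IgE receptor CD23 of mature follicular B cells. Its FPKM was 0.121, 2.41 and 1.54 in the PBS, 2.17, 1.30 and 1.35 in the nonresponsive and 9.09, 4.23 and 13.4 in the responsive tumors. The bounds of responsive tumor 2 (3.38 to 5.08) lay above those of PBS tumor 2 (1.76 to 3.06). The ratio of Fcer2a to Ms4a1 was 0.478 to 0.689 in responsive, 0.377 to 0.473 in nonresponsive and 0.310 to 0.970 in PBS tumors, the last value from PBS tumor 1, where both genes were near 0.

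Ms4a1, which encodes the B cell surface protein CD20, was at 0.125, 7.76 and 4.13 in PBS, at 4.89, 3.45 and 2.85 in nonresponsive and at 17.6, 6.14 and 28.0 in responsive tumors. All responsive tumors were above the nonresponsive ones, and PBS tumor 2 was above responsive tumor 2. The bounds of responsive tumor 2 (5.44 to 6.84) and nonresponsive tumor 1 (4.27 to 5.51) overlapped slightly. Pax5, with the lowest mean FPKM over all 9 tumors (2.30) of the 8 genes other than Cr2, though not in the PBS tumors alone, was at 1.07, 1.98 and 1.32 in the PBS, 1.08, 1.11 and 1.21 in the nonresponsive and 3.85, 1.77 and 7.34 in responsive tumors. The nonresponsive tumors were nearly equal, while the responsive tumors covered a range of FPKM that takes in PBS tumor 2 at its lower end. The bounds of Pax5 in responsive tumor 2 (0.291 to 3.25) held the values of all nonresponsive tumors.

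**Figure D1:**
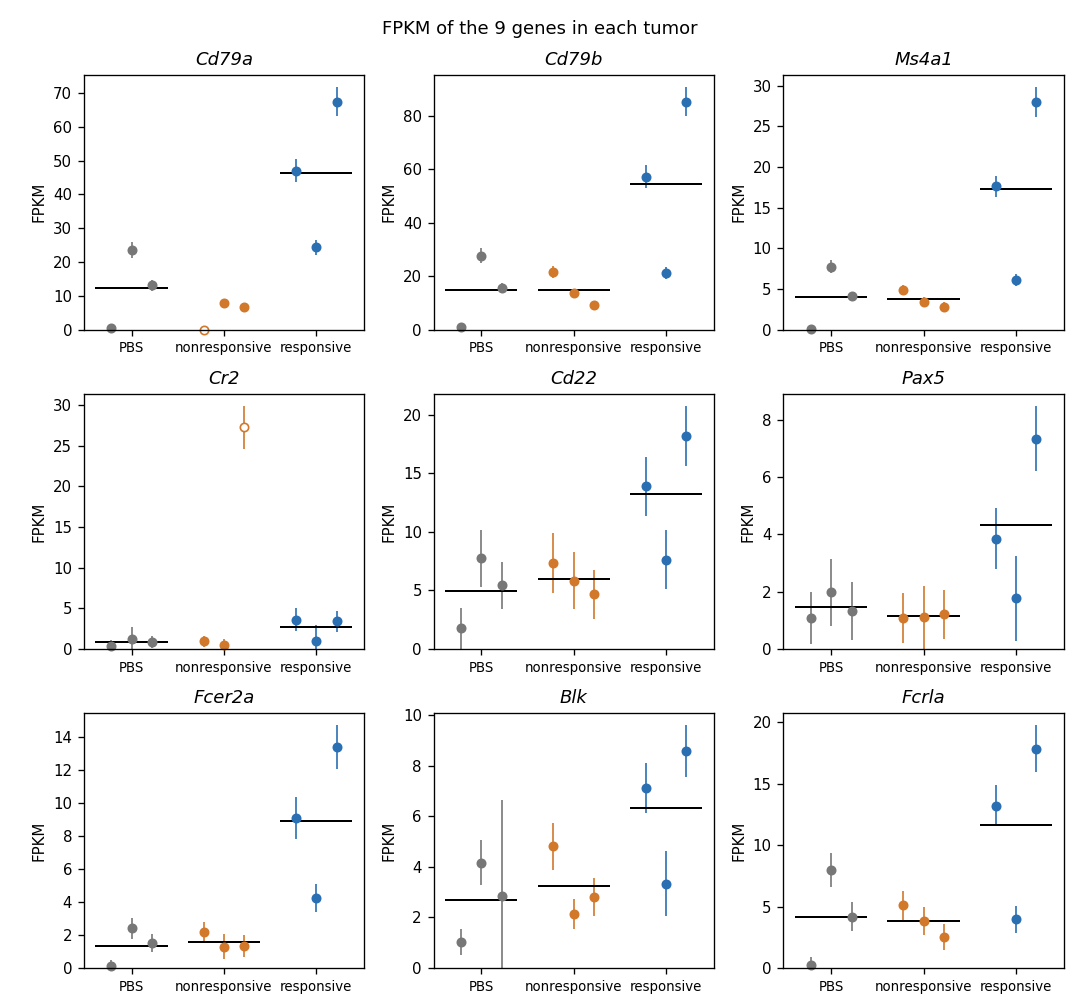
FPKM (linear axis from 0) of each of the 9 genes in the 3 PBS, 3 nonresponsive and 3 responsive tumors, in replicate order from left to right, with the authors' confidence bounds as vertical lines and the mean of a group as a horizontal line. Open points are the 0 of Cd79a in nonresponsive tumor 1 and the row of Cr2 in nonresponsive tumor 3 that sums 3 genes, whose group has no line. Responsive tumors 1 and 3 are above the other filled points in each panel, and responsive tumor 2 is near the other groups in most.

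The order of tumors was much the same from gene to gene. Responsive tumor 3 was highest for 8 of the 9 genes, all but Cr2, and responsive tumor 1 was second for 9 of 9. PBS tumor 1 was lowest for 8 of 9, all but Cd79a, and PBS tumor 2 was the highest PBS tumor for 9 of 9. Responsive tumor 2 was above every nonresponsive tumor for 5 of 9 genes, counting the doubtful 0 of Cd79a, but above PBS tumor 2 for only 2 of 9. As a description over the 9 tumors, the log2(FPKM + 1) of each gene had a Pearson correlation with the mean of the other 8 (each scaled to equal spread) of 0.77 to 0.98, except for Cr2 with 0.23. Spearman's rho was 0.77 to 0.92 for the same 8 genes and 0.52 for Cr2. Without the 2 tumors farthest from the median, r was 0.51 for Cd79a and between 0.80 and 0.98 for the 7 genes besides Cr2 (−0.08). The genes share tumors, libraries and scaling in these correlations.

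In responsive against nonresponsive tumors, the mean log2(FPKM + 1) was higher for 8 of the 9 genes, with a median difference of 1.23. All 9 genes passed the filter on low values used for the other genes, FPKM 1 or more in 3 or more of the 6 tumors compared. There was no overlap between the groups for 5 of 9 genes, Cd79a, Ms4a1, Cd22, Pax5 and Fcer2a, and 5.97% of all 15180 symbols past the same filter were likewise higher in every responsive tumor. This count, taken on the values without their bounds and with the doubtful 0 of Cd79a in nonresponsive tumor 1, was part of what the genes were chosen on. Leaving aside Cd79a and Cr2, the 7 other genes differed by between 0.76 ± 0.436 (SE, n = 3 and 3) for Blk and 1.83 ± 0.453 for Fcer2a. Ms4a1 differed by 1.75 ± 0.624, Cd79b by 1.68 ± 0.670, Fcrla by 1.23 ± 0.629, Pax5 by 1.18 ± 0.460 and Cd22 by 0.98 ± 0.376. In FPKM, Fcer2a was at 8.91 ± 4.59 (SD, n = 3) in responsive and 1.60 ± 0.486 in nonresponsive tumors, and Ms4a1 at 17.3 ± 11.0 and 3.73 ± 1.05. The spread within the responsive group was thus the larger one, and the median difference over the 9 genes was 1.80 without responsive tumor 2 and 0.84 without responsive tumor 3.

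In responsive against PBS tumors, which share the responsive tumors with the comparison above, all 9 genes were higher, with a median log2 difference of 1.50 and a range from 0.95 ± 0.447 (SE) for Cr2 to 2.47 ± 1.33 for Cd79a. Only Cd79a and Fcer2a did not overlap, 2 of 9 genes, against 11.8% of 15199 symbols. Fcer2a differed by 2.10 ± 0.643 and Cd79b by 2.33 ± 1.34. The wide errors come with PBS tumor 1, where all 9 genes were under an FPKM of 2, and without it the median difference was 0.87.

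In nonresponsive against PBS tumors, which share tumors with both other comparisons, the median difference was 0.27 and 7 of 9 genes were higher on average. Of the genes 8 passed the filter, Cr2 being under it, and 0 of 9 were higher in every nonresponsive tumor, against 3.23% of 15155 symbols. Apart from Cd79a and Cr2, differences ran from −0.19 ± 0.158 for Pax5 to 0.65 ± 1.25 for Cd79b, and 6 of the 7 were smaller than their SE. The median turned to −0.30 without PBS tumor 1, so no direction holds between these groups.

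**Figure D2:**
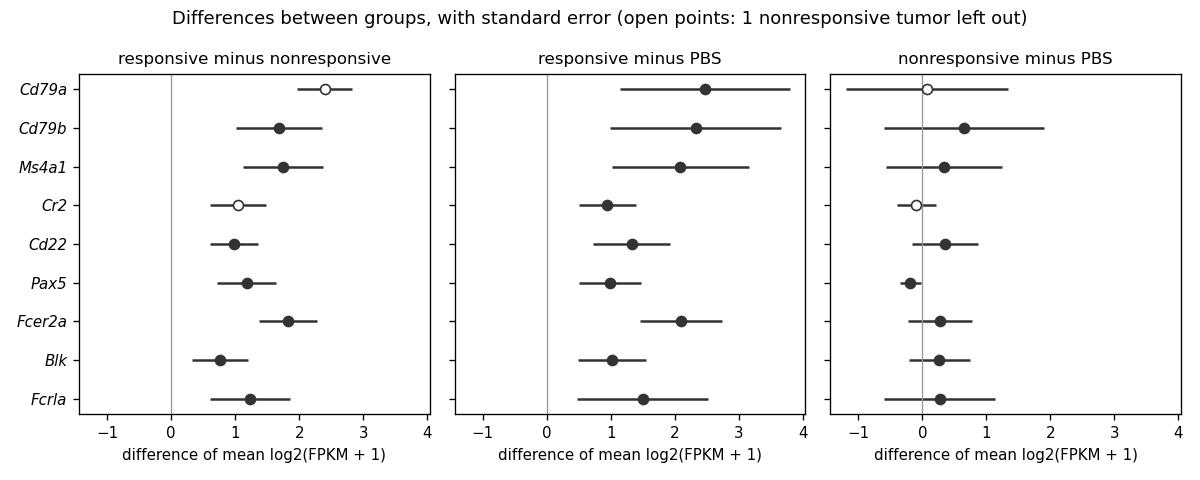
Difference of the group means of log2(FPKM + 1) for each of the 9 genes in the 3 comparisons, with standard errors as horizontal lines. Open points leave out the nonresponsive tumor in which Cd79a is listed at 0 or Cr2 shares its row; points lie to the right of 0 in the first 2 panels and near 0 in the third.

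The level of leukocyte genes differed between tumors too. The mean log2(FPKM + 1) of 10 pan-leukocyte genes, Ptprc and Coro1a among them, was 5.55 in PBS tumor 1 and 6.14 in responsive tumor 2, the lowest of the 9 tumors, and 6.21 to 7.34 in the others. By group it was 6.77 ± 0.546 (SD, n = 3) in responsive, 6.84 ± 0.574 in nonresponsive and 6.31 ± 0.675 in PBS tumors, and 4 of the 10 genes had the higher mean in responsive tumors. Their summed FPKM ran from 1157 to 2082 in responsive and from 1164 to 2277 in nonresponsive tumors. Relative to these genes, the 7 B cell genes other than Cd79a and Cr2 stood at −3.34, −3.47 and −2.76 on the log2 scale in responsive tumors 1 to 3, at −4.77, −4.83 and −4.23 in nonresponsive tumors and at −4.82, −3.98 and −4.27 in PBS tumors. On this scale responsive tumor 2 was with the other responsive tumors, and the responsive tumors lay above the other 6. The gap between responsive and nonresponsive tumors was 1.42 on this scale and 1.34 without it. Between nonresponsive and PBS tumors it was −0.25 and 0.28.

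Other cell types moved in different ways. Macrophage genes had a median log2 difference of −0.45 in responsive against nonresponsive tumors, with 1 of 9 higher and 0 at an unadjusted p under 0.05, and plasmacytoid dendritic cell genes, some of which B cells also use, −0.23 with 2 of 6 higher. T cell genes had a median of 0.45, and 15 of 15 were higher, 6 of them at an unadjusted p under 0.05. Of all loci, 4.37% were higher at that p. Hepatocyte genes had a median of 1.39 with 14 of 14 higher, 5 of them at an unadjusted p under 0.05. Their summed FPKM was 12972 to 28936 in responsive, 4991 to 16011 in nonresponsive and 739 to 7419 in PBS tumors, with Alb at 2576 to 5041 in responsive and 885 to 2678 in nonresponsive tumors. The part of liver tissue in the values of the 9 genes was not tested. A fit with the hepatocyte mean as covariate is given below for the further B lineage loci only.

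**Figure D3:**
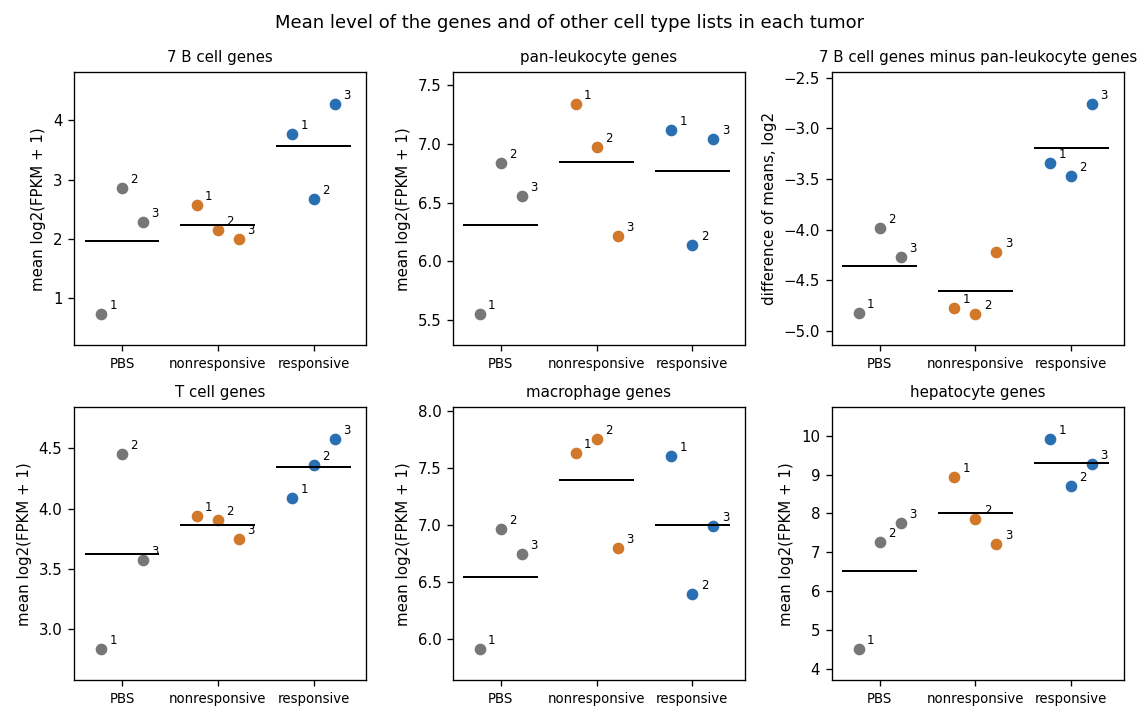
Mean log2(FPKM + 1) per tumor of the 7 B cell genes other than Cd79a and Cr2, of pan-leukocyte, T cell, macrophage and hepatocyte genes, and of the 7 genes relative to the pan-leukocyte genes, with group means as lines and replicate numbers beside the points. The responsive tumors stand apart from the other 6 in the panel relative to pan-leukocyte genes, where they lie between −3.47 and −2.76.

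The genes outside the 9 were tested with limma over all 12714 loci that passed the filter, with Benjamini-Hochberg adjustment, and they come from the same tumors as the 9 genes. Their lists were also chosen with earlier results of these tumors known, so the counts are no independent support for the 9 genes. Of 65 further B lineage loci, 0 passed an adjusted p of 0.05 in responsive against nonresponsive tumors, against 0.0629% of all loci. At an unadjusted p under 0.05, 13 of the 65 were higher and 0 lower, while of all loci 4.37% were higher and 5.94% had such a p in either direction, and 49 of 65 had a higher mean. Their median difference was 0.45, and that of all loci −0.07. The count depended on single tumors, with 27 loci without responsive tumor 2. It was 6 without nonresponsive tumor 2, and 7 without nonresponsive tumor 3, responsive tumor 1 or responsive tumor 3. With the hepatocyte mean as covariate in a fit of all 9 tumors, 3 were higher and 6 lower at that p, 31 of 65 had a higher mean and the median was −0.06. Of the loci described below, that fit turned the heavy chain locus (−1.74), Igkc (−1.77), Jchain (−1.05), Fas (−0.25), Pou2af1 (−0.24), Sdc1 (−0.23), Ptpn6 (−0.19), Pou2f2 (−0.17) and Grb2 (−0.15) negative.

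Other surface genes of the B lineage held most of these loci, 8 of 19 at an unadjusted p under 0.05 with a median difference of 0.73. Fcmr, the IgM Fc receptor, differed by 1.84 ± 0.416 (limma SE, adjusted p = 0.835), Ly6d by 1.70 ± 0.415 and Tnfrsf13c, the BAFF receptor that keeps mature B cells alive, by 1.85 ± 0.492, with the same adjusted p. At each of these 3 genes the 3 responsive tumors were above the 3 nonresponsive ones. The most abundant genes of this list are not restricted to B cells. Cd81, in a locus with Tssc4, was at 175 to 233 in responsive and 143 to 190 in nonresponsive tumors, and differed by 0.31 ± 0.226. Ly86 was at 45.4 to 61.8 and 57.4 to 85.6, with a difference of −0.29 ± 0.240, and Cd37 at 42.9 to 57.9 and 21.9 to 44.2, with a difference of 0.73 ± 0.294.

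Of the transcription factors, 3 of 9 loci had an unadjusted p under 0.05 and 9 of 9 were higher, with a median of 0.75. Spib, a factor of mature B cells and plasmacytoid dendritic cells, was at 14.8, 6.96 and 23.8 in responsive and 5.54, 3.86 and 1.88 in nonresponsive tumors, a difference of 1.70 ± 0.499 (limma, adjusted p = 0.835). Bcl11a differed by 1.03 ± 0.353 and Ikzf3 by 0.84 ± 0.332. Ebf1, which acts with Pax5 in early commitment and is also expressed outside the B lineage, differed by 0.07 ± 0.403, and this turned to −0.06 when FPKM were rescaled to named entries. Pou2af1, the octamer coactivator, shares a locus with 2010007H06Rik, which was at 31.6, 7.81 and 64.5 in responsive and 15.9, 9.39 and 8.04 in nonresponsive tumors, a difference of 1.19 ± 0.730. The loci of Tcf3 and Pou2f2 hold further genes and differed by 0.29 ± 0.283 and 0.45 ± 0.456. FPKM summed per symbol, which takes in any row shared with other genes, gave −0.62 for Pou2f2.

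The signaling genes below the receptor were evenly split between the directions. Their median difference was −0.03, with 9 of 18 higher and 1 at an unadjusted p under 0.05, Prkcb. Prkcb, the protein kinase C of B cell activation, was at 22.2, 11.9 and 23.7 in responsive, 6.96, 8.68 and 4.01 in nonresponsive and 5.15, 5.91 and 3.81 in PBS tumors, and differed by 1.42 ± 0.365 (limma, adjusted p = 0.835). Lyn, which myeloid cells also express, differed by −0.46 ± 0.393. The 2 other most abundant genes of this list, Ptpn6 and Grb2, differed by 0.01 ± 0.215 and 0.02 ± 0.198, and both turned negative after rescaling to named entries (−0.19 and −0.18).

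Genes of antibody secretion varied widely within groups. The heavy chain locus that holds Ighm and Ighd, joined with other constant and variable segments, was at an FPKM of 14858, 2783 and 23804 in responsive, 10008, 4732 and 5300 in nonresponsive and 78.8, 10533 and 6525 in PBS tumors. Responsive tumor 2 was the lowest of the 6 antibody-treated tumors there, unlike at Cd79a or Fcer2a, and the difference was 0.66 ± 0.876. FPKM summed per symbol gave −1.03 for Ighm and −2.16 for Ighd. Such a sum takes in the whole of any row shared with other segments, so it is no measure of the gene alone. The kappa locus of Igkc differed by 0.74 ± 0.926. Jchain, which joins secreted IgM and IgA, was at 822, 127 and 962 in responsive, 302, 275 and 150 in nonresponsive and 6.24, 486 and 236 in PBS tumors, a difference of 1.00 ± 0.813. Of 9 plasma cell loci 8 were higher and 0 had an unadjusted p under 0.05, with Xbp1 at 0.45 ± 0.344 and Sdc1, a gene of epithelial cells too, at 0.23 ± 0.289.

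Of 8 germinal center loci, 6 were tested and 4 were higher, and 1 had an unadjusted p under 0.05, the locus of Mef2b and Borcs8, with a difference of 0.64 ± 0.236. The other most abundant genes of the list were Fas (0.31 ± 0.283) and S1pr2 (−0.30 ± 0.202), neither restricted to germinal centers. Of precursor B cell genes, Rag2, Vpreb1 and Igll1 were listed at 0 in all 9 tumors, Dntt was at 0.179 to 1.55, and Rag1 was measured only in a locus with Iftap, at 0.12 ± 0.295. Among lymphoid tissue genes, 8 of 12 were higher and 3 had an unadjusted p under 0.05. They were Ccl19, a chemokine of T cell zones (1.70 ± 0.346, adjusted p = 0.826 with limma), Ltb (1.03 ± 0.351), and the locus of Lta (2.66 ± 1.07), which holds another gene and was listed at 0 in nonresponsive tumor 2. The Lta locus was at 0.856 in nonresponsive tumor 3 but at 18.5 in nonresponsive tumor 1, above responsive tumor 1 (14.5), so the groups overlapped. Ccl21a differed by 0.67 ± 0.553 and the locus of Tnfsf13, which holds 6 genes, by −0.46 ± 0.303.

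**Figure D4:**
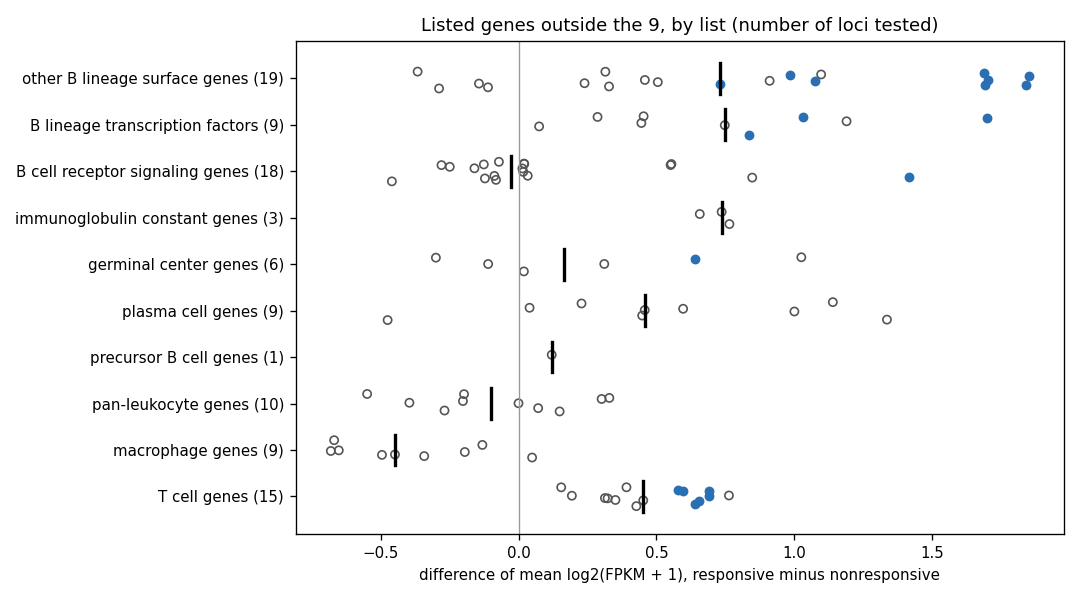
Difference of mean log2(FPKM + 1), responsive minus nonresponsive, of each tested locus of the B lineage lists and of pan-leukocyte, macrophage and T cell genes. Filled points have an unadjusted p under 0.05 in limma, none has an adjusted p under 0.05, and vertical lines are medians, which run from −0.45 for macrophage genes to 0.75 for transcription factors.

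Against PBS, the further B lineage genes of responsive tumors had a median difference of 0.67 over 64 loci, with 56 higher, 10 at an unadjusted p under 0.05 in that direction and 1 lower, where 9.12% of all 12713 loci were higher and 19.1% had such a p in either direction. None of the 64 passed an adjusted p of 0.05, against 0.149% of all loci. The lower one was Ralgps2, at 6.57 to 13.6 in responsive and 13.6 to 26.5 in PBS tumors, named after its values were seen. Prkcb differed by 1.72 ± 0.305 (limma, adjusted p = 0.246). The median of all loci was −0.11 in this comparison. Without PBS tumor 1 the median of the B lineage loci was 0.31, and with the hepatocyte covariate it was −0.20, with 21 of 64 higher. In nonresponsive against PBS tumors 1 of 62 loci, Ly86, was higher at an unadjusted p under 0.05 (0.60 ± 0.223, limma adjusted p = 0.699), and 0 were lower, where 1.57% of 12661 loci were higher and 3.23% had such a p in either direction. An adjusted p of 0.05 was passed by 0 of the 62 and by 0.0395% of all loci.

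The loci whose log2(FPKM + 1) went most like the 9 genes were sought among 13174 loci at FPKM 1 or more in 3 or more of the 9 tumors, by Pearson correlation with the mean of the 9 scaled genes. The 10 closest included Tnfrsf13c (r = 0.98), Gm48840 (0.97), Bcl11a with Gm12063 (0.96), Cd83 (0.96), Qprt with Spn (0.96), Nsg2 (0.95), Fcrl1 (0.95), Ccr6 (0.95) and Fam214a (0.95). Tnfrsf13c and Bcl11a were also among the 3 closest of the B lineage lists. Without PBS tumor 1 and responsive tumor 3, the tumors farthest from the median, r of these 10 was between 0.84 and 0.95, and Spearman's rho over all 9 tumors was between 0.67 and 0.90. With Cd79a and Cr2 left out of the mean, Tnfrsf13c ranked 2nd and Cd83 29th. Cd83, a marker of activated B cells and dendritic cells, was at 19.6, 10.2 and 25.2 in responsive and 10.1, 12.3 and 10.8 in nonresponsive tumors, so it overlapped. Ccr6, a chemokine receptor of mature B cells and some T cells, was at 8.28, 3.11 and 7.83 in responsive and 3.25, 2.02 and 1.46 in nonresponsive tumors.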

How the data were processed

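RNA of 9 tumors, each from 1 mouse, was sequenced by the authors (3 PBS, 3 nonresponsive, 3 responsive, grouped by the sample labels). The submitters' processing notes name TopHat2 2.1.1, Bowtie2 2.2.4 and the build mm8, but coordinates in the tables lie off GRCm38 by different distances from gene to gene, so the build is taken as unsettled and none of these coordinates is printed. The authors deposited per tumor a Cufflinks table of FPKM with confidence bounds, which were used as deposited. In a Cuffdiff table they deposited pooled group FPKM, used for 1 value of Cd79a, and fold changes with p-values, which were not used.

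FPKM of rows naming a gene were summed per symbol. For tests, genes sharing a row in any tumor were joined in all, giving 48235 loci, 2595 with more than 1 gene. 7 loci with a failed estimate were left out. log2(FPKM + 1), which understates changes of low genes, was compared with limma 3.58.1 in R 4.3.3 (eBayes with trend) on the 6 tumors of a comparison, over loci with FPKM of at least 1 in at least 3 tumors, with Benjamini-Hochberg adjustment over all of them. Only the limma fit, without the summing, the joining and the filter, was tested on simulated data. Noise there was drawn independently for each locus, so variation shared by loci within a tumor was not simulated. A p-value sets a group difference against the spread between mice within groups of this 1 experiment, moderated over all loci. In the antibody-treated groups that spread is only that within the 3 largest or the 3 smallest tumors.

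The 9 genes and the gene lists were chosen with earlier results of these tumors known. Named were the 9 genes, from each list the 3 most abundant, those past an adjusted p of 0.05 and up to 3 with the smallest p under 0.05 in responsive over nonresponsive tumors, with Ighm, Ighd, Ebf1 and Pou2af1, and the genes most alike. A gene that the rule also names is not reported here. Some list genes (pancreatic, hepatocyte, T cell) are given by list only, and the motifs and other genes were chosen after values were seen. Irf8 was not analysed here. Tables and plots were made in Python 3.11.15 (pandas 2.3.3, matplotlib 3.10.9).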

Additional observations from a re-analysis of the deposited data

How the results depend on the processing

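The median difference of the 9 genes kept its direction in responsive against nonresponsive and against PBS tumors under a pseudocount of 0.1, upper-quartile scaling, rescaling to entries that name a gene, the mean in place of the median, the joined loci, subtraction of pan-leukocyte genes and, added after seeing the data, without Cd79a and Cr2. It ran from 0.84 to 1.80 and from 0.87 to 2.10 when single tumors were left out. For nonresponsive against PBS tumors it turned to −0.26 relative to pan-leukocyte genes, and leaving out single tumors gave −0.30 to 0.70. The cause was not tested. No fit with the hepatocyte mean as covariate is given for the 9 genes.

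The number of further B lineage loci at an unadjusted p under 0.05, either direction, was 13 in responsive against nonresponsive tumors and 6 to 27 without single tumors, as given above by tumor. For responsive against PBS it was 11, with 7 under a pseudocount of 0.1, 3 with the hepatocyte covariate (1 higher and 2 lower, in place of 10 and 1) and 2 to 23 without single tumors (2 without responsive tumor 1 or 3, 5 without PBS tumor 1, 6 without PBS tumor 3, 21 without responsive tumor 2, 23 without PBS tumor 2). For nonresponsive against PBS it was 1, with 2 per gene symbol and 0 to 5 without single tumors (0 without PBS tumor 1, PBS tumor 3 or nonresponsive tumor 2, 2 without PBS tumor 2, 5 without nonresponsive tumor 3). Rescaling to named entries moved the median of all loci in responsive against nonresponsive tumors from −0.07 to −0.24 and gave 289 loci higher and 575 lower in place of 555 and 200. Of the B lineage loci 8 were then higher and 1 lower. In responsive against PBS tumors it gave 889 higher and 2272 lower in place of 1159 and 1275. In nonresponsive against PBS tumors the hepatocyte covariate moved the median of the B lineage loci from 0.29 to −0.19, with 17 of 62 higher in place of 53, and turned Pou2f2 to −0.68 among others, such as Igkc (−1.15), Jchain (−1.05), Pou2af1 (−0.96) and the heavy chain locus (−0.92).

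With the replicate number as a block the counts of B lineage loci were 10, 5 and 0 for the 3 comparisons. The labels share numbers between groups without saying what they mark, and deviations of same-numbered tumors had correlations from −0.50 to 0.64, so the numbers were not taken to pair the tumors. The unknown depth and 3 tumors per group limit the precision, and an exact permutation test of 3 against 3 cannot go below 0.1.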
